A study of Mus musculus with 2 samples.

Results

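Accessible regions that both libraries called as peaks, and in which neither library called a footprint, are described here. DNase-seq was run on genomic DNA of left cerebral cortex tissue. The mice were B6CASTF1/J males, an F1 hybrid of the C57BL/6J and CAST/EiJ strains, 8 to 10 months old. The 2 libraries are labelled as biological replicates 1 and 2 of 1 untreated group. They come from separate biosamples that carry the same donor identifier, so whether they are separate animals was not tested and the spread between them may be technical. The tissue was taken whole, without sorting of cells, so fewer cells of a type and less open chromatin per cell cannot be told apart. Replicates 1 and 2 held 40705 and 39508 peaks in the stricter of the deposited peak lists and 166128 and 174394 footprints.

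A pair is an autosomal stricter peak that overlapped exactly 1 stricter peak of the other library, by at least 1 bp, and was the only one that this peak overlapped. Among 26575 such pairs, 1032 held the midpoint of no footprint of their own library in either replicate, which is 3.88% (95% Wilson interval 3.66 to 4.12%, counting error only). These 1032 are called footprint-free pairs. They were selected on the deposited footprint calls, so their lack of footprints is the choice itself and not a result. Of the other pairs, 23231 (87.4%) held footprints in both libraries, 1254 in replicate 1 only and 1058 in replicate 2 only.

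DNase I cuts DNA where nucleosomes leave it exposed, and regulatory DNA such as promoters and enhancers is cut most. A protein bound within such a region shields the bases it covers, and the resulting dip in cutting is called as a footprint, a call that rests on the number of cuts in the region. Many mammalian promoters lie in CpG-rich DNA, where the open stretch at the start of the gene is followed downstream by positioned nucleosomes with linker DNA between them.

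Of the 1032 footprint-free pairs, 861 were among the weakest 30% of pairs, and 562 (54.5%) lay near a gene start beside a stronger peak in both libraries. A smaller set of 183 had no other stricter peak nearby. Against pairs of the same strength with footprints in both libraries, footprint-free pairs lay near a start more often, in 78.0% against 27.0% of pairs in each library. Their sequence was richer in CpG sites, with 6.42 and 6.26 against 3.23 and 3.21 per 100 bases in replicates 1 and 2.

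The strongest footprint-free pairs show this sequence directly. Each stretch below is 150 bases of the forward strand, in build mm10 (GRCm38), around the centre of the DNA that both peaks share, and capitals mark CpG sites. The first 4 are the strongest members by the poorer of their 2 within-library ranks, and the fifth is the strongest member over 10 kb from any annotated start, which was chosen after its values were seen.
Cic, chr7:25282279-25282428: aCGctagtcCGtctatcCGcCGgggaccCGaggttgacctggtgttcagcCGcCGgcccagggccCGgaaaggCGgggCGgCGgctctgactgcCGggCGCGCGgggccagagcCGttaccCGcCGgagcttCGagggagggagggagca
Plxdc1 side, chr11:97988563-97988712: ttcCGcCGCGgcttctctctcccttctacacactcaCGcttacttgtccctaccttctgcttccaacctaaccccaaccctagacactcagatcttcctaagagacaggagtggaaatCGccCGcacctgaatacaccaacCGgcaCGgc
Tpgs1, chr10:79669759-79669908: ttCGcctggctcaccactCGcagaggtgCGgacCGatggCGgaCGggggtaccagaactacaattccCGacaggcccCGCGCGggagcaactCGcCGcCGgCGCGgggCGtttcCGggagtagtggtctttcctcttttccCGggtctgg
Tent4a, chr13:69535035-69535184: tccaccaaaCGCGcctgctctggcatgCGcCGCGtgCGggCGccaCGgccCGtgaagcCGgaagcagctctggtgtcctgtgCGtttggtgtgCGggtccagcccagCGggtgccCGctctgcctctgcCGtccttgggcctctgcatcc
Myl3 side, chr9:110781825-110781974: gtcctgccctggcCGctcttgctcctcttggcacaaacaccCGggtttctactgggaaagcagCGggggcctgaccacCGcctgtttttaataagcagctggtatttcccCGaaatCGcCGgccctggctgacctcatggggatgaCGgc
The window at Cic held 19 CpG sites at a GC content of 74.0%, that at Tpgs1 18 sites and that at Tent4a 15 sites. The windows on the Plxdc1 and Myl3 sides, which are not promoter windows, held 8 sites each. The rule counts only footprints of a peak's own library. At Tent4a and on the Plxdc1 side the replicate 1 peak covered footprints called in replicate 2, some of them inside the printed window. On the Myl3 side the replicate 2 peak covered footprints called in replicate 1. For comparison, the 2 pairs nearest in strength to the Cic pair that held at least 3 footprints in each library are given with the footprints of replicate 1 in capitals.
Itm2b intron, chr14:73382812-73382961: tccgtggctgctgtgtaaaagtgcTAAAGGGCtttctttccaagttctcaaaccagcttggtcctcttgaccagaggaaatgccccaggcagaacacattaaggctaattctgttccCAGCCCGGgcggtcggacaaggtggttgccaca
Near Gm43190, chr3:98427635-98427784: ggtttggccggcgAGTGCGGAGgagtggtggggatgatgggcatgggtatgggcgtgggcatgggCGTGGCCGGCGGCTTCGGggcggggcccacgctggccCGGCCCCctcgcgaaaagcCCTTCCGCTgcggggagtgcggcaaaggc
The Itm2b window, within an intron, held 4 CpG sites and 2 footprints of replicate 1. The window labelled near Gm43190 is not at a start. Its pair lay 21266 and 21242 bp downstream of the Gm43190 start, the nearest one, in a coding exon. This window held 16 CpG sites and 4 footprints of replicate 1, so a CpG-rich window of this strength can hold called footprints.

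Strength, the signal value of column 7 in the deposited peak lists, ran from 0.227 to 2.12 in replicate 1 and from 0.231 to 2.17 in replicate 2 among footprint-free pairs, with medians of 0.768 and 0.787. Pairs with footprints in both libraries had medians of 1.71 and 1.59. The share of footprint-free pairs fell with each decile of pair strength, the geometric mean of both libraries' values, where decile 1 is the weakest 10% of pairs. It was 15.1% in decile 1 (401 of 2658 pairs), 9.60% in decile 2, 7.71% in decile 3, 3.88% in decile 4 and 1.88% in decile 5. Decile 6 held 15 members, decile 7 held 3 and deciles 8 to 10 held 0, where 0 of 2657 allows a share of up to 0.144% (Wilson). The 3 weakest deciles held 861 members, or 83.4% of them. Since strength and footprint calls come from the same cuts, this gradient is a description of the choice.

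**Figure D1:**
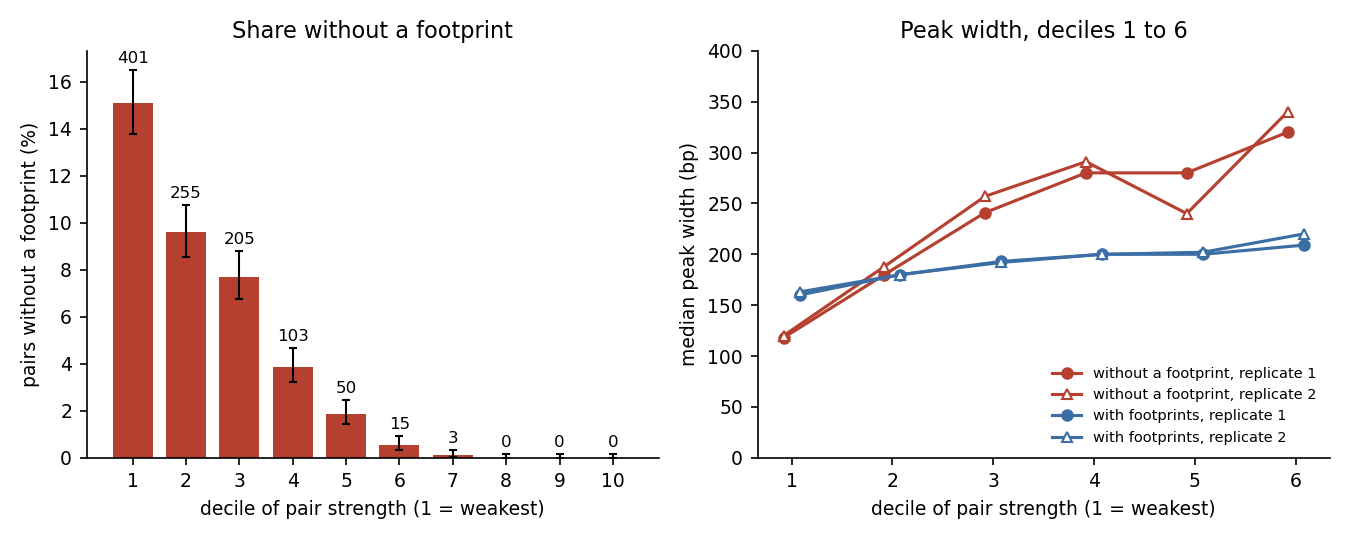
Left, percent of pairs without a footprint in each decile of pair strength, with 95% Wilson intervals as bars and the number of such pairs above each column. Right, median peak width in bp in deciles 1 to 6 for pairs without a footprint and pairs with footprints in both libraries, by replicate. The share was 15.1% in decile 1 and 1.88% in decile 5, and members were narrower than the other pairs in decile 1 but wider in deciles 3 to 6.

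Just outside the rule lay 919 pairs with exactly 1 footprint in 1 library and 0 in the other. Their median strengths were 0.758 and 0.731 and their median widths 149 and 143 bp, close to the strengths of the members. The 1030 pairs with exactly 1 footprint in each library had median strengths of 0.976 and 0.889. In median strength the rule thus drew no sharp border between the members and the 919 pairs. The members were wider, with a median of 180 bp in each library. Place and neighbours of the 919 pairs were not compared.

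The other comparisons set the 1032 footprint-free pairs against 15306 pairs with footprints in both libraries from the 7 deciles that hold members, weighted so that each decile counted equally often in both sets. A difference was called when the values of both libraries in one set lay beyond both values of the other. Both libraries were scored over the same regions, and no p-value is given. The source of the spread between them was not tested.

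Width gives a footprint room and was not used by the rule. The median width was 180 bp in each library for footprint-free pairs and 180 bp in each library for pairs with footprints, with no difference called. Peaks under 80 bp were more frequent among footprint-free pairs, with 17.2% and 17.5% against 4.68% and 6.29%. Equal medians covered opposite differences by strength. In decile 1 footprint-free pairs were narrower, at 118 and 120 bp against 160 and 163 bp, and in decile 4 wider, at 280 and 291 bp against 200 bp in each library.

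The peaks of both libraries overlapped less in footprint-free pairs. The overlap covered on average 50.4% of the wider peak in footprint-free pairs, against 65.2% in pairs with footprints of the same strength. The midpoints of the paired peaks lay 40 bp apart in the median for footprint-free pairs and 20 bp apart for the others. Their strengths were no less alike, with 0.0969% of footprint-free pairs and 0.641% of the others differing by over 2-fold between libraries. The footprint-free set also depends on the library it is held against, since 890 of the 1032 held no footprint midpoint of either library in either peak.

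Gene starts were the place where footprint-free pairs concentrated. Of the footprint-free pairs, 78.0% in each library had a start within 1000 bp (805 pairs, Wilson interval 75.4 to 80.4%), against 27.0% of pairs with footprints. The median distance to the nearest start was 454 and 449 bp for footprint-free pairs, against 8256 and 8260 bp. Of footprint-free pairs, 19.3% and 19.2% were intergenic by their midpoint, against 46.8% and 46.3%, while 47.6% and 48.0% lay in introns, against 37.6% and 37.5%, and 12.1% and 11.9% in coding exons, against 4.43% and 4.75%. Without weighting by strength the difference was 26.7 percentage points in place of 51.0, since strong pairs with footprints lie near starts more often. The difference held in each of the 5 weakest deciles, for example at 63.1% against 21.7% in decile 1 and 93.2% against 32.5% in decile 4 of replicate 1.

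Near starts, footprint-free pairs sat on the downstream side. Among the 803 that were within 1000 bp of a start in both libraries, 72.4% and 73.1% had their midpoint downstream, against 51.2% and 53.4% of pairs with footprints. The peaks with footprints clustered over the start itself, with 31.8% and 29.9% of them in the 200 bp upstream, against 12.6% and 11.7% of footprint-free pairs. Footprint-free pairs instead spread over the first 600 bp of the gene, and the bin from 400 to 600 bp downstream alone held 23.4% and 21.8% of them, against 6.15% and 6.92% of pairs with footprints. Fewer footprint-free peaks covered a start, with 20.4% and 21.5% against 42.6% and 43.6%.

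**Figure D2:**
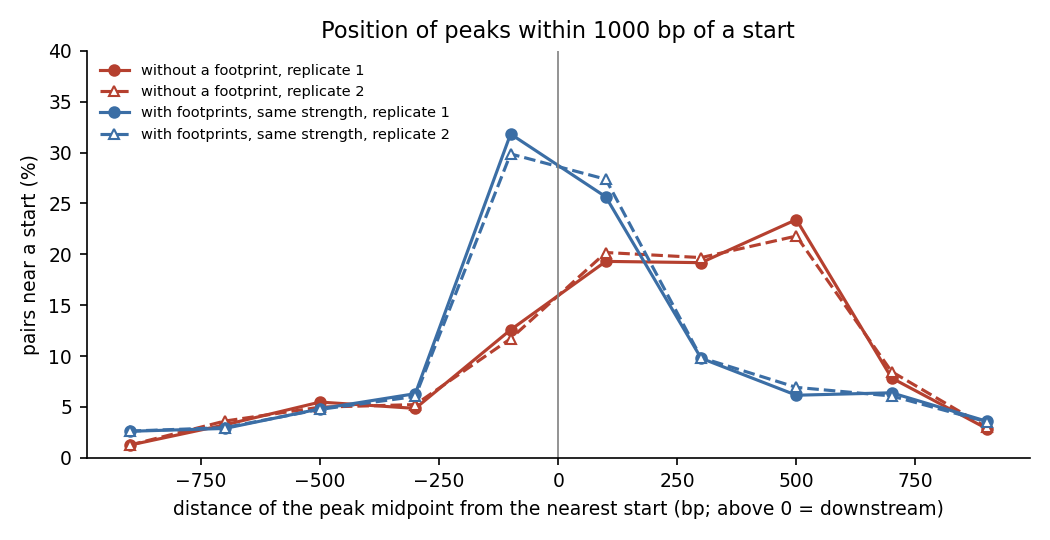
Percent of pairs within 1000 bp of a start in each 200 bp bin of distance from the nearest start, with downstream to the right, for pairs without a footprint and weighted pairs with footprints, by replicate. Pairs without a footprint were most frequent 400 to 600 bp downstream (23.4% and 21.8%), and pairs with footprints in the 200 bp upstream of the start (31.8% and 29.9%).

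A neighbouring peak was the feature that set footprint-free pairs apart most. Another stricter peak of the same library lay within 500 bp of 76.0% and 77.6% of footprint-free pairs, against 14.0% and 17.2% of pairs with footprints. For 67.5% and 68.5% of footprint-free pairs the nearest such peak was also stronger, against 6.61% and 6.27%. Near starts, the neighbour of a footprint-free pair was stronger by a median ratio of 3.11 and 2.60, and held 5 footprints in the median in each library. The corresponding ratio for pairs with footprints was 1 in replicate 1 and 0.917 in replicate 2. When a footprint-free pair lay downstream of its start, the neighbour lay on the upstream side in 83.6% and 80.9% of cases, against 69.6% and 61.9% for pairs with footprints.

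Counted the other way, both place and neighbour went with the share of pairs that had no footprint. This split was made after the data were seen. In the 3 weakest deciles, 448 of 856 pairs near a start whose nearest peak was stronger and within 500 bp in both libraries were footprint-free (52.3%, Wilson interval 49.0 to 55.7%). Of the 993 pairs near a start with no peak within 500 bp, 39 were (3.93%, interval 2.89 to 5.32%). Away from starts, 39 of 155 pairs beside a stronger peak were footprint-free (25.2%, interval 19.0 to 32.5%), against 137 of 4473 pairs with no peak nearby (3.06%, interval 2.60 to 3.61%). Without a neighbour the intervals for near and away overlapped, and beside a stronger peak they did not. In deciles 4 to 7 the share was 17.5% (114 of 650) near a start beside a stronger peak and 0.174% (4 of 2301) near a start with no peak nearby. Away from starts beside a stronger peak it was 11.1% (12 of 108, interval 6.47 to 18.4%), which overlapped the interval near starts of 14.8 to 20.7%.

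**Figure D3:**
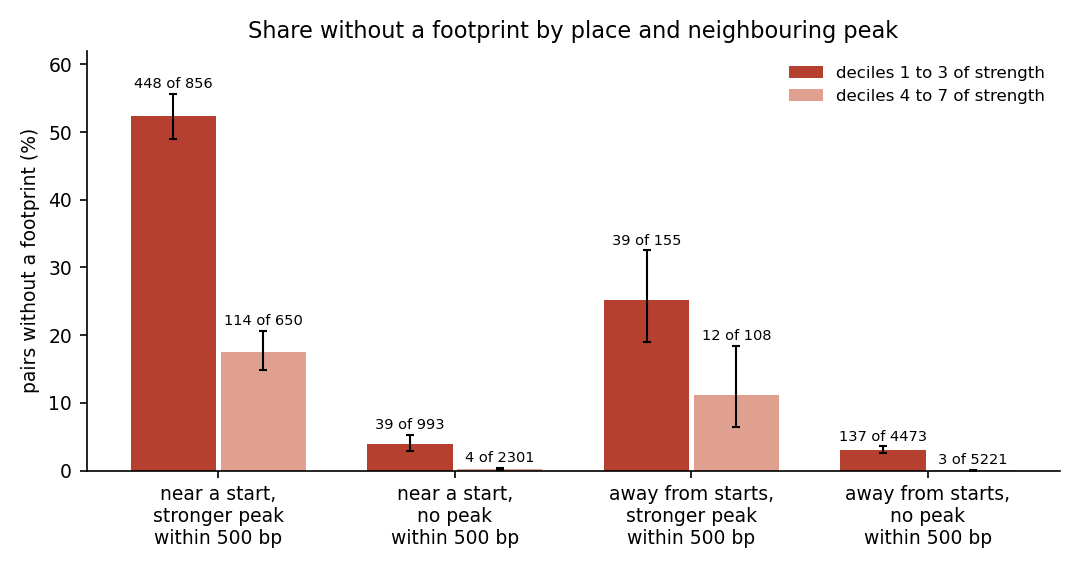
Percent of pairs without a footprint, with 95% Wilson intervals, by whether both peaks lie within 1000 bp of a start and whether their nearest stricter peak is stronger and within 500 bp or no peak lies within 500 bp. Dark columns are deciles 1 to 3 of strength and light columns deciles 4 to 7. Pairs near a start beside a stronger peak reached 52.3% in deciles 1 to 3, and pairs with no peak nearby stayed at 3.93% near starts and 3.06% away from them.

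By these features the members fall into 562 (54.5%) near a start beside a stronger peak in both libraries, 183 (17.7%) with no stricter peak within 500 bp in either library, and 287 (27.8%) that are mixed. The 562 were set against 514 pairs with footprints of the same strength, place and kind of neighbour. There the median width was 205 and 209 bp in footprint-free pairs and 209 and 244 bp in the others, with no difference called. They still lay downstream of the start more often, with 73.2% ± 0.126 against 60.4% ± 0.589 (SD, n = 2 libraries). This SD is between 2 scorings of the same regions and leaves out counting error. The Wilson interval of the footprint-free share was 69.3 to 76.6% in replicate 1 and 69.5 to 76.8% in replicate 2. Of the 514, only 165 lay in deciles 1 to 3, against 448 of the 562, and these 165 carry most of the weight. Their stronger neighbour had a median strength of 3.06 and 2.57, against 1.33 and 1.32 for the neighbours of pairs with footprints, at gaps of 247 and 220 bp against 240 and 224 bp. The gaps were alike and the neighbours of footprint-free pairs stronger.

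The 183 pairs without a neighbour were of another kind. Their median width was 99 and 97 bp, against 164 and 160 bp for 7881 pairs with footprints that also had no neighbour, and 35.5% and 36.6% were under 80 bp, against 5.46% and 7.61%. Near a start lay 23.5% of them in each library, against 15.9%, so the difference of 51.0 percentage points over all members shrank to 7.60 here. Within 50 bp of the peak edge, 48.6% and 46.4% of them had a footprint of their own library outside the peak. No footprint lay within 10 kb of 25.7% and 25.1% of them. The lowest false discovery rate of the cut rate in the peak had a median of 1.1e-04 and 1.2e-04, against 6.5e-06 and 1.5e-05. It is a description only, since these rates and the footprints were derived from the same alignments.

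Over all members a footprint was seldom far away. It lay within 500 bp of 82.8% and 85.3% of footprint-free peaks, at a median gap of 257 and 232 bp, and 1.45% and 2.13% of these peaks were touched at an edge by a footprint whose midpoint was outside. Among the 225 members away from starts, 32.4% and 34.7% had another stricter peak within 500 bp, against 6.96% and 8.37% of pairs with footprints. Over 10 kb from any start lay 124 members, and 73 of these had no stricter peak within 10 kb.

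The difference in base composition was smaller within each kind of place. The GC content of the 150 bases around the peak midpoint averaged 60.9% and 60.5% in footprint-free pairs, against 54.1% in each library for pairs with footprints. Near starts the GC difference was smaller, at 63.2% and 62.7% against 60.6% in each library, with 7.45 and 7.24 CpG sites per 100 bases against 6.15 and 6.10. Away from starts GC content was still called higher, at 53.1% and 52.9% against 51.3% and 51.2%. So were CpG sites there, at 2.81 and 2.80 per 100 bases against 2.08 and 2.06. Among the 562 pairs beside a stronger peak the GC content did not separate, at 63.2% and 63.0% against 63.0% in each library, and CpG sites numbered 7.57 and 7.38 against 7.14 and 7.07. Soft-masked repeat covered 5.41% and 5.54% of the window in footprint-free pairs, against 7.11% and 7.15%, and this order turned without weighting by strength. DNase I cutting depends on base composition, and its part in these footprint calls was not tested.

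Short sequence matches gave 2 higher and 7 lower calls among 26 consensus motifs, 7.69% and 26.9% of them, where a call needs a share over 1.5-fold higher or lower in both libraries. The motif of the SP and KLF zinc finger factors, GGGCGG on either strand, was in 26.4% and 25.6% of footprint-free windows, against 12.8% and 11.9% in pairs with footprints and 27.9% and 26.5% of all pairs. The ETS motif CCGGAAG was in 31 and 26 of 1032 windows, against 1.65% and 1.58%, and 6.09% and 5.57% of all pairs. Near starts neither was called, with SP and KLF ratios of 1.06 and 1.12 and ETS ratios of 0.913 and 0.987. Away from starts the SP and KLF motif was called higher, with ratios of 1.57 and 1.78 on 21 and 23 of 225 windows, and ETS was not. In the 183 pairs with no peak within 500 bp ETS was called higher, with ratios of 1.84 and 2.50 on only 4 and 5 windows. Without weighting by strength the SP and KLF motif was not called and ETS was called lower. The ETS call was also lost with deciles taken within each library, with width added to strength, and over the whole peak.

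The NEUROD E-box, the short NFI motif and the TATA motif were less frequent in footprint-free windows. The E-box of NEUROD, CAGATG, a motif of neuronal basic helix-loop-helix factors, was in 9.40% and 9.30% of footprint-free windows, against 17.0% and 17.1%, and 11.5% of all pairs in each library. The short NFI motif TTGGCA, of factors that act in astrocytes and neurons, was in 7.66% and 7.07%, against 13.1% and 13.0%, and 8.97% and 8.76% of all pairs. The TATAAA motif was in 1.45% and 1.84%, against 3.89% and 3.91%, and 2.61% and 2.63% of all pairs. Near starts the NFI motif and TATAAA were still called lower, with ratios of 0.634 and 0.555 and of 0.444 and 0.550, and the NEUROD E-box was not. Away from starts TATAAA was called lower, and the NFI motif, with ratios of 1.03 and 1.07, and the NEUROD E-box were not. In the 562 pairs near a start beside a stronger peak the NFI ratios were 0.875 and 0.854, which is no call. Without weighting by strength none of these 3 motifs was called. Over all members the motifs of MEF2, SOX, EGR and RFX, other factors known from neurons or glia, were not called either way. Ratios were 0.730 and 0.782 for MEF2 and 0.863 and 0.798 for SOX. Near starts EGR (0.647 and 0.612), RFX (0.654 and 0.651) and the motif of the NFY complex (0.614 and 0.660) were called lower. Among the 562 pairs none of these 5 was called. In the 183 pairs with no peak within 500 bp MEF2 was called higher, with ratios of 2.25 and 2.31 on 9 windows in each library. SOX was also called higher there, with 1.69 and 1.55 on 21 and 19 windows. The other lower calls over all members rest on few matches. The CRE motif TGACGTCA of CREB and ATF factors had 1 and 2 matches, a ratio of 0.163 (counting interval 0.0288 to 0.921) and 0.484 (0.133 to 1.76). The POU motif ATGCAAAT had 3 and 4, a ratio of 0.312 (0.106 to 0.915) and 0.445 (0.173 to 1.14), and the ATF4 motif TGATGCAA had 2 in each, a ratio of 0.477 (0.131 to 1.73) and 0.521 (0.143 to 1.89). The core motif of CTCF, an insulator protein that leaves a deep footprint where it binds, was in 0 of 1032 windows in each library. That allows a share of up to 0.291% (3 counts), or 0.371% by the Wilson upper limit. The share was 0.675% and 0.695% in pairs with footprints and 0.960% and 0.929% in all pairs. Members were chosen for holding no footprint, so a low share of this motif may follow from the choice. The same limit holds for each of the other motifs called lower, over all members and near starts. The CTCF call was lost near starts, away from starts, with no peak within 500 bp and among the 562 pairs. Near starts pairs with footprints had a share of only 0.334% and 0.368%.

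**Figure D4:**
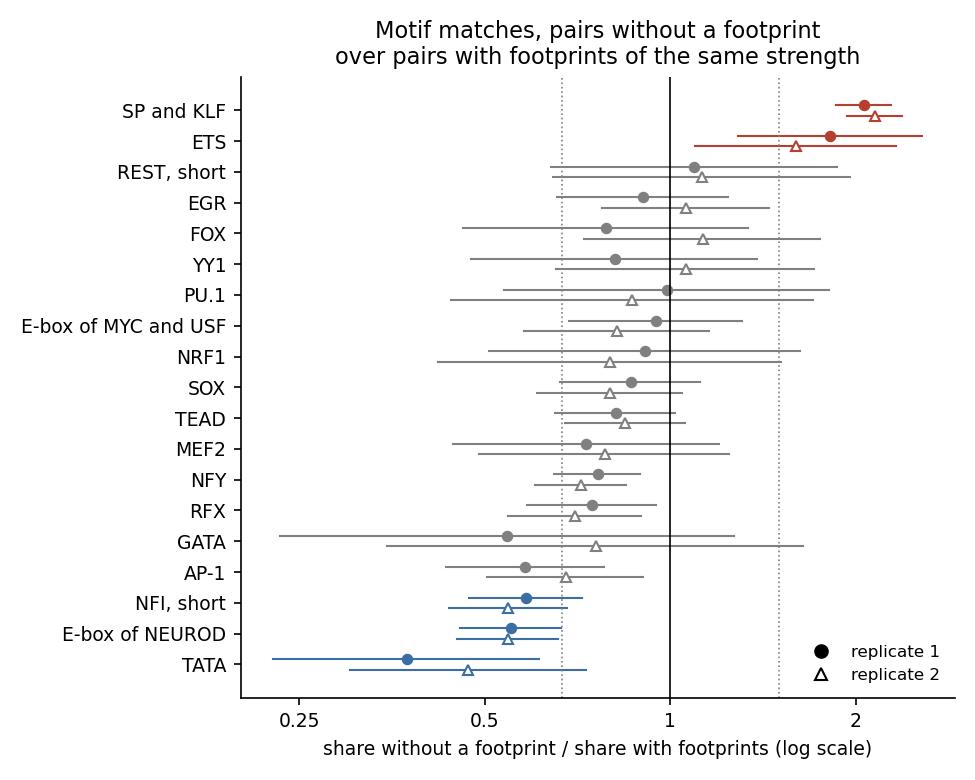
Ratio of the share of windows with a motif match in pairs without a footprint over that in pairs with footprints of the same strength, on a log scale, for the 19 motifs with more than 3 matches in each library, with counting intervals as lines and dotted lines at the 1.5-fold limits. The SP and KLF motif (2.06 and 2.15) and the ETS motif (1.82 and 1.60) lie to the right, and the NEUROD E-box, the short NFI motif and TATAAA to the left.

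Near starts 10 motifs were called lower and 0 higher. NRF1, an activator of CpG-rich promoters with the motif GCGCNTGCG, was in 1.07% and 0.890% of the 562 footprint-free windows beside a stronger peak. Their counterparts had weighted shares of 6.08% and 3.67%. These shares rest on 6 and 5 footprint-free windows and on 23 and 18 windows of the counterparts. Over all members NRF1 was not called, with ratios of 0.910 and 0.799. Away from starts it was not called either, with 2.32 and 1.26 on 3 and 2 windows. The SP and KLF motif was in 33.1% and 31.5% of the 562 windows, against 28.4% and 26.3%, and was not called there. Here too, a lower share may follow from choosing members without a footprint. A match says only that the letters are present, and no motif match was read as a binding site.

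Of the 10 strongest members, 9 lay within 1000 bp of a start of a protein-coding gene in both libraries. At Cic, which encodes an HMG-box repressor acting downstream of receptor kinases, the peak spanned chr7:25282301-25282400 in replicate 1 and chr7:25282321-25282388 in replicate 2, with strengths of 1.94 and 1.80. Its midpoint lay 171 and 175 bp downstream of the Cic start, in an untranslated exon. The next peak, 20 and 160 bp away, had strengths of 3.29 and 2.77 and held 9 and 3 footprints, and the nearest footprint lay 51 and 64 bp from the footprint-free peak.

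At Tpgs1, which encodes a subunit of the tubulin polyglutamylase complex, the peak at chr10:79669654-79670015 was 362 bp wide in replicate 1 and 560 bp in replicate 2, with strengths of 1.77 and 1.74. At Tent4a, a non-canonical poly(A) polymerase gene, the peak at chr13:69535001-69535380 had strengths of 2.03 and 1.65 and widths of 380 and 60 bp, at -573 and -493 bp from the nearest start, which is upstream. The replicate 2 peak there is touched by a footprint whose midpoint is outside it. The second strongest member, at chr11:97988594-97988749 with strengths of 1.82 and 2.17, was intergenic and lay at -2227 and -2194 bp, which is upstream, from the start of Plxdc1, a gene for a membrane protein with a plexin-like domain, between stronger peaks on both sides.

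**Figure D5:**
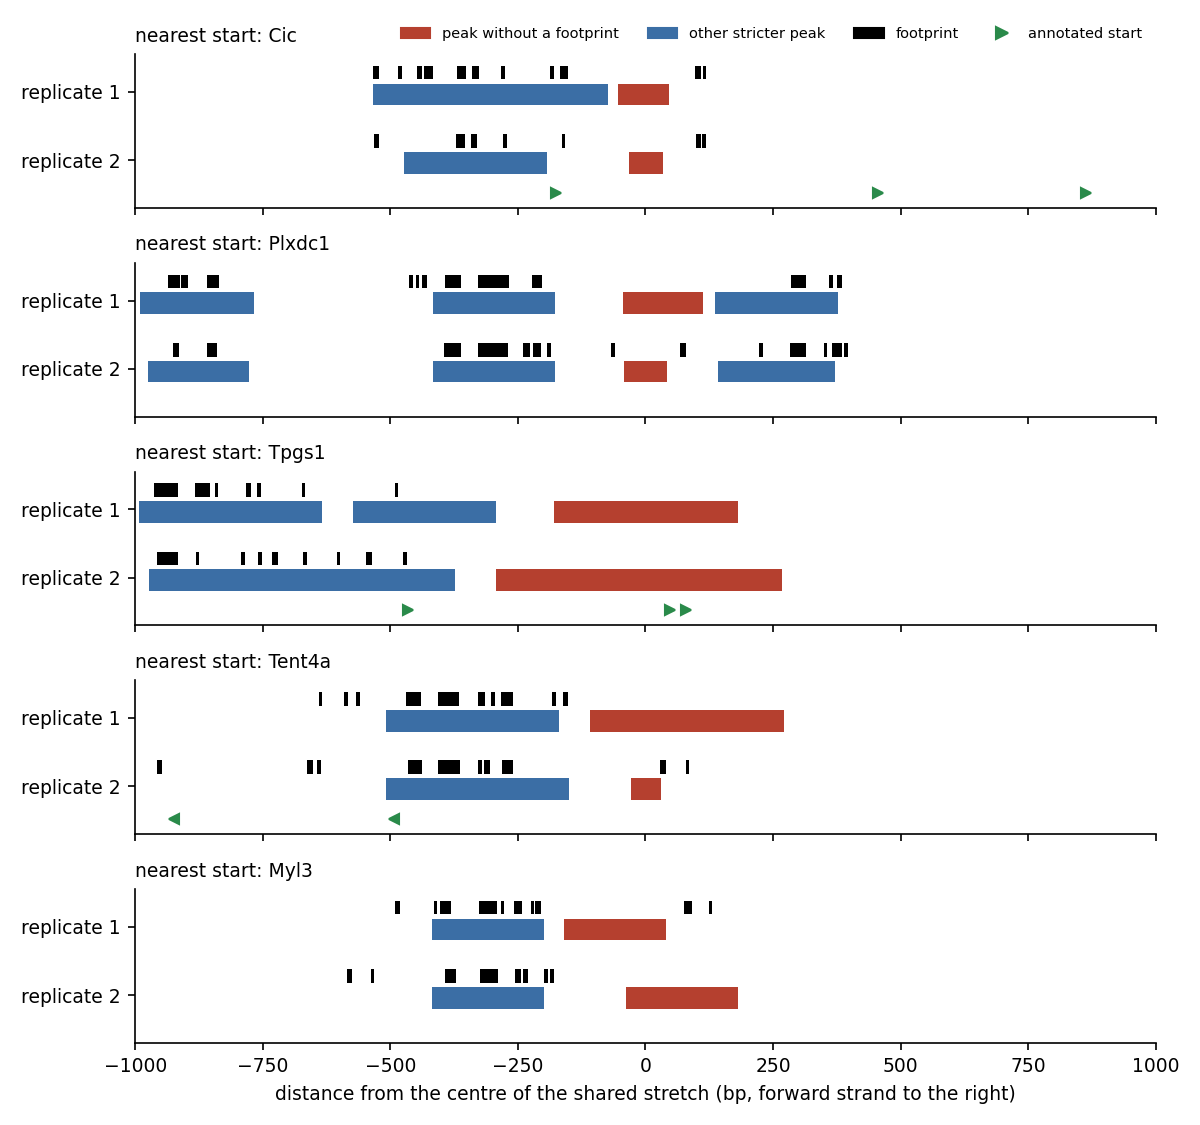
Stricter peaks of both replicates (boxes) and footprints (black marks above them) within 1000 bp of the centre of the 5 footprint-free pairs whose sequences are given, with annotated starts as arrowheads pointing in the direction of transcription. Each pair, in red, lies beside a stronger peak with footprints in both libraries, at gaps of 20 and 160 bp at Cic, 60 and 120 bp at Tent4a and 40 and 160 bp on the Myl3 side.

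Zfp143, a zinc finger activator gene, had a footprint-free peak at chr7:110061941-110062260 with strengths of 1.86 and 1.44, 378 and 338 bp downstream of its start, and its neighbour reached 9.39 and 9.81 with 5 footprints in each library. Sp2, which encodes a factor of the SP family, had one at chr11:96977081-96977560 with a strength of 1.76 in replicate 1, beside a peak of 7.80 and 5.19. Adam9, a membrane metalloprotease gene, had one at chr8:25016443-25016900 with strengths of 1.63 and 1.69 beside a peak of 6.37 and 4.88. The peaks at Zfp143 and Sp2 were intronic by their midpoint in both libraries and that at Adam9 in replicate 1, and each neighbour was stronger in both libraries.

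Phf5a, for a subunit of the SF3b splicing complex, had a pair at its start with strengths of 1.92 and 1.45, beside a peak of 5.99 and 6.04. Pop7, for a subunit of RNase P, had one upstream, at -465 and -495 bp from its start, with strengths of 1.61 and 1.45, beside a peak of 7.76 and 6.79. The nearest start of any gene to that pair was that of the lincRNA gene 9130604C24Rik, with the pair 310 and 340 bp downstream. Pcbp1, for a poly(C)-binding protein, had one 551 and 601 bp downstream with strengths of 1.82 and 1.53 and widths of 580 and 640 bp. Its nearest start of any gene was that of the antisense gene 1600020E01Rik, with the pair upstream at -477 and -527 bp. The downstream shares above used the nearest start of any gene. There the nearest peak of replicate 1 was stronger, at 4.15 with 16 footprints, while that of replicate 2 was weaker, at 0.861 with 0 footprints. The weakest of the 10 strongest members near a coding start lay at Tef, which encodes a PAR bZIP factor, with a strength of 1.44 in replicate 2, upstream at -616 and -697 bp from the start.

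The widest members were also promoter pairs. The widest, at chr13:32802361-32803140, measured 780 and 660 bp and lay 99 and 159 bp downstream of D930007J09Rik. The pair at Alyref2, a gene for an mRNA export factor, measured 600 and 640 bp, and that at Smarca5, the gene for a chromatin remodelling ATPase, 560 and 620 bp. The pair at Pcbp1 was among the 5 widest too. Over all strengths, pairs with footprints had a median width of 220 bp in each library.

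The members farthest from any footprint were of the isolated kind. The farthest, at chr10:124570896-124570981, lay 329212 and 551072 bp from the nearest footprint, was 86 and 129 bp wide and had strengths of 0.379 and 0.426. The other 4, on chromosomes 1, 4, 8 and 14, had strengths of 0.324 to 0.630 and widths of 70 to 252 bp. None of the 5 lay within 1000 bp of a start.

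Of 10621 autosomal protein-coding genes with any pair within 1000 bp of a start, 821 had a footprint-free one, which is 7.73%. Of the 821 genes, 715 (87.1%) also had a pair with footprints near a start, against 10216 (96.2%) of all 10621 genes. Part of this difference follows from the choice, since a gene without a footprint-free pair had one with footprints in at least 1 library. In replicates 1 and 2, 799 and 802 of the 821 genes (97.3% and 97.7%) had a stricter peak with footprints near a start. The share of all 10621 genes with such a peak is not given, so these values describe the 821 only.

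Among marker genes with any pair near a start, 0 of 6 excitatory neuron genes, 0 of 8 pan-neuronal genes, 0 of 5 astrocyte genes, 0 of 1 precursor gene and 0 of 1 microglia gene had a footprint-free pair. One of 3 oligodendrocyte genes had one, as did 1 of 16 activity-regulated and 1 of 14 housekeeping genes, against 7.73% of all. No pair of any kind lay near starts of the 12 inhibitory neuron, 10 endothelial and mural or 6 red blood cell genes, and 1 of 1128 olfactory receptor genes had one, with footprints. A pair of any kind lay near a start of 6 of 12 excitatory neuron, 8 of 11 pan-neuronal and 5 of 10 astrocyte genes. Among all autosomal protein-coding genes the count was 10621 of 20807. The small numbers allow no comparison between lists.

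The oligodendrocyte gene was Olig1, a basic helix-loop-helix factor of that lineage, with a pair at chr16:91270014-91270080 of strengths 0.597 and 0.768, 275 and 341 bp downstream of the start in the coding exon. The activity-regulated gene was Dusp6, a phosphatase that switches off ERK kinases, with a pair at chr10:99263661-99263988 of strengths 1.07 and 0.954. The housekeeping gene was Eef1a1, a translation elongation factor, with a pair at chr9:78480921-78481320 of strengths 1.60 and 1.36. Their nearest peaks had strengths of 1.86 and 1.69 at Olig1, 3.81 and 3.34 at Dusp6 and 4.51 and 4.31 at Eef1a1, each with at least 4 footprints in each library. In all 3 the footprint-free peak lay beside a stronger one with footprints.

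The share of footprint-free pairs ran from 2.61% on chromosome 17 (32 of 1226, interval 1.85 to 3.66%) to 4.97% on chromosome 9 (76 of 1529, interval 3.99 to 6.18%). Every autosome held some.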

How the data were processed

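Per the labels, DNase-seq libraries were made from nuclei of left cerebral cortex and the files are in build mm10. Each library has 2 deposited peak lists, a footprint list and a table of the false discovery rate (p-value type, q-values under 0.05) of the cut rate, each derived from that library's own alignments, per the notes deposited with the files. The signal in column 7 of the deposited peak lists served as strength. The sources used here do not give its scaling, the peak caller, the aligner or the read depth. In the lists the summit column is constant, so midpoints were used. Intervals cover counting error only.

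From the deposited intervals, peaks were paired by an overlap of at least 1 bp, and a footprint belonged to a peak that held its midpoint. Pairs with footprints in both libraries were weighted to the same deciles of pair strength, and a decile needed at least 20 of them. GC, CpG, soft-masked repeat and motif matches (both strands) were read from 150 bases of the GRCm38 reference around each midpoint. Beside the motifs spelled out above, the search used TGANTCA for AP-1 factors and CCAAT for the NFY complex. It used AAGATGGC for the factor YY1 and the E-box CACGTG for the factors MYC and USF. For RFX factors it used GTTGCC and for the methyl-CpG reader ZBTB33 it used TCTCGCGA. For EGR factors it used GTGGGCG, which shares letters with the SP and KLF motif, and for SOX factors ACAATG. For the myeloid factor PU.1 it used GAGGAAGT, for forkhead factors TGTTTAC and for the family of GATA factors AGATAAG. For the nuclear receptor ROR it used GTAGGTCA, for TEAD factors GGAATG and for a part of the REST site TCAGCACC. MEF2, the full NFI site and CTCF are given by name. Starts and exons are those of the GENCODE mouse annotation, all transcripts. Python 3.11.15, pandas 2.3.3, numpy 2.4.6, scipy 1.17.1 and matplotlib 3.10.9 were used. The weighting was tested on simulated data. No p-value was computed, since there is 1 group of 2 libraries.

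Regions named are the 10 strongest members, the 10 strongest near a coding start, the 5 widest, the 5 farthest from a footprint and those near a start of a listed marker gene, with the exceptions stated; 1 of the 5 widest is not reported here. The members and lists were chosen with earlier results of these data known. Alternatives changed how footprints are assigned, how peaks are paired and weighted, the window, the distance and the fold. Chromosomes X and Y were left out of the pairs.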

Additional observations from a re-analysis of the deposited data

Results flagged for a closer look

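Chromosome X was outside the comparisons, which used autosomes. Counted by the same rule, 48 of its 725 pairs held no footprint in either library (6.62%, 95% Wilson interval 5.03 to 8.67%), against 3.88% of autosomal pairs (interval 3.66 to 4.12%). These are signals in data that the comparisons above did not use. Males carry 1 copy of this chromosome, strength was not matched in this count, and its part in the difference was not tested. Of the 11 pairs on chromosome Y, 0 held no footprint.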

How the results depend on the processing

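No paired analysis was possible because both libraries belong to 1 group. The differences in nearness to a start, CpG content, neighbouring peaks and position downstream kept their direction and their call under each alternative run. Measuring in only 1 replicate gave 51.0 and 51.0 percentage points for nearness to a start, and 10 and 11 motif calls, against 9. The same 1032 pairs, chosen on both libraries, were measured each time. These values therefore cannot show what 1 library alone would give. The count of 1032 pairs became 512 where peaks had to share at least 50% of each other and 18 in the stronger 50% of pairs, and 997, 890 and 960 under the other alternatives. Unweighted, the differences were 26.7 points for nearness, 37.4 points downstream, 1.93 points of GC and 0.838 CpG sites per 100 bases; with no peak within 500 bp, they were 7.60 points, 8.97 points, 1.54 points and 0.390 sites.

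Width, with a main difference of 0 bp, was called under 8 alternatives: 6 bp when any overlap of a footprint counted, 14 bp with footprints of both libraries, 34.5 bp with 50% sharing, 80.5 bp in the stronger 50%, 9.5 bp with a footprint within 10 kb, -40 bp unweighted, and, chosen after seeing the data, -60 bp away from starts and -64 bp with no peak within 500 bp. The cause was not tested. The GC difference of 6.63 points fell to 0.111 and lost its call near a start beside a stronger peak. The repeat difference of -1.66 points turned to 0.0587 in the stronger 50% and 0.0945 unweighted. The 9 motif calls became 3 in the stronger 50% (18 members), 15 at a lower fold limit, 4 away from starts, 5 with no peak nearby and 4 beside a stronger peak near a start. Only 1 of the last 4 calls and 4 of the 10 unweighted calls were shared with the main 9, and the ETS call turned to lower unweighted. Read depth is unknown and bounds what a missing footprint can mean.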
